A study of Mus musculus with 10 samples.

Results

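Alad, Hdhd3 and the enzymes of heme synthesis were examined in brain endothelial cells (BECs) of APP/PS1 mice. The members were 9 named genes, found by symbol among the 14106 genes of the deposited table: Alas1, Alad, Uros, Urod, Cpox, Ppox and Fech of heme synthesis, the heme oxygenase Hmox2, and Hdhd3, the gene beside Alad. All 9 were found, and all 9 were above the authors' filter on low counts. They were chosen with the difference between APP/PS1 and control already known, above all that of Alad and Hdhd3, so their differences are given as a description and with no test.

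Bulk RNA was sequenced from cortical BECs in 10 libraries, 5 of APP/PS1 and 5 of control (WT by label) mice, all female and 1 year old. The APP/PS1 (APPSwe/PSEN1dE9) mice carry transgenes of mutant amyloid precursor protein and presenilin, and the age-matched controls have the same C3H/BL6 background. This is a cross of inbred strains, and no genotype of the mice at any locus was analysed here. Mice were perfused, the cortex was dissociated, myelin was removed, and cells were enriched with CD31 beads to CD31+ CD45- cells. The sources used here do not state how many mice went into a library, so the spread between libraries may be partly technical. Each replicate number holds 1 control and 1 APP/PS1 library, and the 5 differences within these pairs are the base of every result.

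Levels are in log2 CPM, the log2 of counts scaled to a common library total, after batch correction by the authors. The correction set the means of the pairs nearly equal for each gene, with a median SD of the 5 pair means of 0.00353 log2 CPM over all genes. In consequence, a control library that is high for a gene has an APP/PS1 library of the same number that is low by as much, and which of these libraries moved cannot be told apart. The libraries held between 22371766 and 126686149 adjusted counts, which are counts after the correction and not reads. All 10 endothelial markers were measured, and their summed level was 24701 to 27065 CPM in control and 23656 to 25981 CPM in APP/PS1 libraries. The sum mainly follows the most abundant of them. Singly, 7 were higher and 3 lower on average in APP/PS1, by −0.30 to 0.10 on the log2 scale. By flow cytometry for CD31 and CD45, the authors report a high purity of the isolated cells. In bulk RNA, fewer cells of a type and less RNA per cell cannot be told apart.

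Heme, an iron-bearing ring, is the oxygen-binding group of hemoglobin and the electron-carrying group of cytochromes, and nitric oxide synthases and guanylate cyclase hold it too. Its synthesis starts in mitochondria with 5-aminolevulinate synthase (Alas1 in most cells, Alas2 in red cell precursors), which sets the rate of the pathway. The product leaves for the cytosol, where Alad (5-aminolevulinate dehydratase) joins its molecules to porphobilinogen, and Uros and Urod are among the enzymes that build and trim the ring. Cpox and Ppox oxidise it, Fech inserts iron in mitochondria, and the heme oxygenases, inducible Hmox1 and constitutive Hmox2, open the ring again. Hdhd3 encodes a protein of the haloacid dehalogenase (HAD) type, a family that holds many phosphatases.

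Alad lies on the reverse strand of chromosome 4 (GRCm38, chr4:62509169-62519918), and Hdhd3 on the same strand at chr4:62499008-62503467. The 2 genes are neighbours, with 5701 bases between them and with no other annotated gene overlapping either. Pole3, a subunit of DNA polymerase epsilon, lies on the other side of Alad at chr4:62522649-62525068, 2730 bases away. Because Alad and Hdhd3 differed alike while Pole3 did not differ by as much, the stretches just before a RefSeq start of these 3 genes are shown (GRCm38.p6), 5′ to 3′ on the reverse strand and without bases annotated as exons. The gene spans above are those of GENCODE, and the starts differ between the annotations. For Hdhd3 the RefSeq start is at 62502200, inside the GENCODE span that starts at 62503467, so the printed stretch is before the RefSeq start but within the GENCODE gene, outside its exons. Alad has 2 RefSeq starts, and the stretch before the farther one, at 62520063, is shown. Capitals mark the GC box GGGCGG, the CCAAT box and the E-box CACGTG, each searched on both strands.
Alad, chr4:62520064-62520313: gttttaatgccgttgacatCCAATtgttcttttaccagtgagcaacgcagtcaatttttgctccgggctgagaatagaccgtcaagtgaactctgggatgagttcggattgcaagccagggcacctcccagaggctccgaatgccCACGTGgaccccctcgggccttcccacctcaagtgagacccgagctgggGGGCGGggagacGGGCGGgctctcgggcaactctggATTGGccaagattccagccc
Hdhd3, chr4:62502277-62502450: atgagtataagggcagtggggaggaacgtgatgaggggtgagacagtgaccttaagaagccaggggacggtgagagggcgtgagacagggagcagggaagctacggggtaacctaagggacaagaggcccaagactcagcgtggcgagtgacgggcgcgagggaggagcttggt
Pole3, chr4:62525069-62525264: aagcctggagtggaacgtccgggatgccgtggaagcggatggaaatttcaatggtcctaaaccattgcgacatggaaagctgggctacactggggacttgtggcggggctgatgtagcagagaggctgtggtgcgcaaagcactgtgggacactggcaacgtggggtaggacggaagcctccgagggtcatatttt

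The Alad stretch of 250 bases held 2 GC boxes, 2 CCAAT boxes and 1 E-box, none of which overlapped another. The window before the other RefSeq start of Alad, which overlaps this one and is not printed, held 6 GC boxes, 1 CCAAT box and 1 E-box. The Hdhd3 stretch of 174 bases and the Pole3 stretch of 196 bases held none of these motifs. In the full 250 bases before the start, Hdhd3 had 1 GC box, in an annotated exon and thus not printed, and Pole3 had none. Of all 32851 windows of 250 bases in the table, 32.7% held a GC box, 33.8% a CCAAT box and 6.02% an E-box. These matches are a description of the sequence and do not show binding.

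The same search covered the 13 windows of the 8 members with a window on chromosomes other than 18, some of which have several RefSeq starts. A GC box was present in 7 of 13 windows (of Alad, Alas1, Hdhd3, Hmox2, Urod and Uros), a CCAAT box in 4 (of Alad, Ppox and Urod) and an E-box in 4 (of Alad, Urod and Uros). Windows of the same gene can overlap, as those of Alad do, so they are not independent. Ppox held 4 CCAAT boxes, the most of any member window. The letters TGACNNNGC of the antioxidant response element were found in 0 of 13 windows, against 10.2% of all windows, and the letters GATAA, part of the site of blood cell regulators, in 3 of 13 (of Cpox, Hmox2 and Uros), against 22.6%.

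Alad was higher in 4 of 5 APP/PS1 libraries than in the control library of the same number. In the control libraries 1 to 5 its level was 4.93, 4.70, 4.50, 4.83 and 5.33 log2 CPM. In the APP/PS1 libraries 1 to 5 it was 5.72, 5.92, 6.07, 5.82 and 5.17 log2 CPM. Replicates 1 to 4 were thus fully apart, and the groups overlapped through replicate 5, where the APP/PS1 library was the lowest of its group and the control library the highest. The differences within pairs were 0.78, 1.22, 1.56, 0.99 and −0.16 on the log2 scale. Their mean was 0.88 ± 0.24 (SE, n = 5 pairs), a 1.84-fold higher level, and ranged by pair from 0.893-fold to 2.95-fold. Every SE in the text and figures is the moderated SE of the limma fit, which draws the spread of a gene toward that of all genes. For Alad and Hdhd3 it is smaller than the SE from their own 5 differences would be.

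Hdhd3 had a like pattern over the libraries. Its control libraries 1 to 5 stood at 0.26, −0.03, 0.00, 0.20 and 0.94 log2 CPM. Its APP/PS1 libraries 1 to 5 stood at 1.48, 1.63, 1.64, 1.52 and 0.59 log2 CPM. Again 4 pairs were apart and the pair of replicate 5 ran the other way. The differences were 1.22, 1.66, 1.64, 1.32 and −0.34, with a mean of 1.10 ± 0.31 (SE, n = 5 pairs), or 2.14-fold. These values rest on 27 to 320 adjusted counts in a library, against 710 to 6284 for Alad, and the pair of replicate 1 holds the fewest, with 27 and 61.

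Among all 14106 genes, 20.7% were higher in at least 4 of 5 pairs, as Alad and Hdhd3 were. A log2 fold change of at least 0.5 in the higher direction was present in 161 genes, or 1.14%, and these 2 members were among them. Higher in all 5 pairs were 2.99% of genes and lower in all 5 pairs 5% of genes, and no member was in either group. Levels that did not overlap between the groups were found in 2.91% of genes in the higher and 4.96% in the lower direction, and again in no member. Since the members were chosen on this contrast, these shares are given as the background only.

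**Figure D1:**
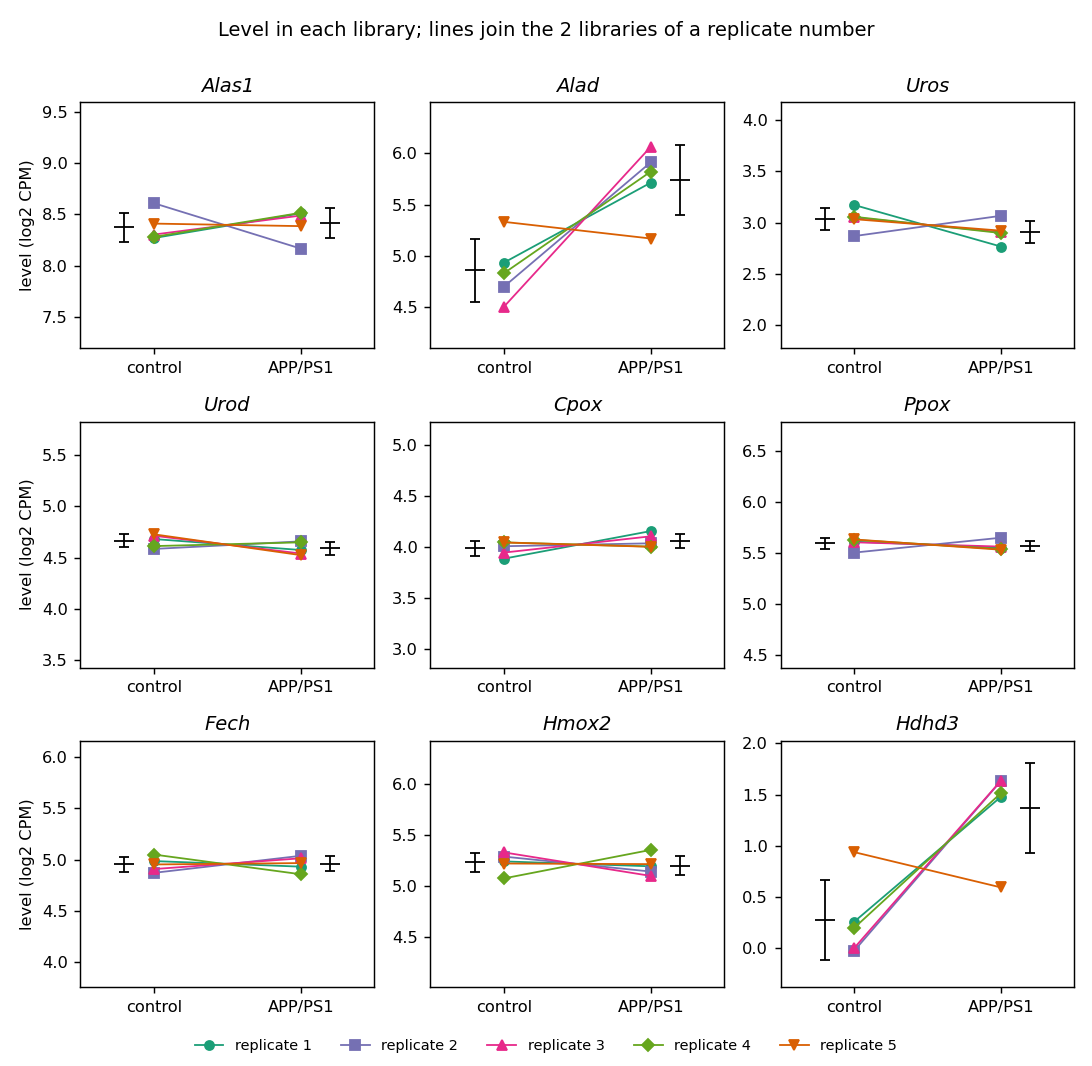
Level of each of the 9 members in log2 CPM (y axis, a span of the same width in every panel) in control and APP/PS1 libraries, with a line joining the libraries of a replicate number and the group mean ± SD (n = 5) at the sides. For Alad and Hdhd3, 4 lines run steeply upward, by 0.78 to 1.66, and that of replicate 5 downward, and the steepest line of the other 7 genes is that of Alas1 in replicate 2, at −0.44.

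The pairs also disagreed more for Alad than is usual at its level. The SD of its 5 differences was 0.65 log2 units, larger than in 99.5% of the 2121 genes with a mean level within 0.5 log2 CPM. For Hdhd3 it was 0.83, larger than in 92.0% of 1085 such genes. For the other 7 members the SD ran from 0.10 (Ppox) to 0.29 (Alas1), and the share of genes of like level with a smaller SD ran from 37.9% (Cpox) to 87.6% (Alas1).

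The other 7 members, which are enzymes of synthesis and Hmox2, showed no difference as large as those of Alad and Hdhd3. All 7 lay within 0.2 log2 units of 0, as did 84.6% of all genes, with log2 fold changes between −0.12 and 0.07. Alas2, an enzyme of synthesis that is not a member, had −0.89 ± 0.87 (SE) and is described below. Alas1, the rate-setting enzyme, had 8.27, 8.61, 8.30, 8.28 and 8.41 log2 CPM in control libraries 1 to 5 and 8.51, 8.17, 8.49, 8.52 and 8.39 in APP/PS1 libraries. Its groups overlapped, the pair of replicate 2 differing by −0.44 and those of replicates 1, 3 and 4 by 0.24, 0.19 and 0.24, and its log2 fold change was 0.04 ± 0.11 (SE).

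Uros, which closes the porphyrin ring, had the lowest value of the 7, −0.12 ± 0.09 (SE), and was lower in 4 of 5 pairs. Its control libraries ranged from 2.87 to 3.17 and its APP/PS1 libraries from 2.77 to 3.07 log2 CPM. Urod, which removes carboxyl groups from the ring, stood at −0.07 ± 0.06 and was lower in 3 pairs. Lower values in at least 4 of 5 pairs were found in 23.1% of all genes and in 3 members, Uros, Ppox and Hmox2.

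Cpox, the first of the mitochondrial oxidases, had 0.07 ± 0.06 (SE), with 3.89 to 4.05 log2 CPM in control and 4.00 to 4.16 in APP/PS1 libraries. Ppox, the oxidase after it, had −0.03 ± 0.05 and the least spread of the members. Fech, the last enzyme, had 0.01 ± 0.06, with differences from −0.19 in replicate 4 to 0.17 in replicate 2. Hmox2 had −0.03 ± 0.08, with differences from −0.23 in replicate 3 to 0.28 in replicate 4. None of these 4 genes moved one way in all pairs, and their group ranges overlapped.

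The 3 genes of heme breakdown fixed beside Hmox2 had values just under 0. Hmox1 had a log2 fold change of −0.05 ± 0.14 (SE, adjusted p = 0.956 by limma), Blvra, a biliverdin reductase, −0.06 ± 0.11 (adjusted p = 0.920), and Blvrb, the other, −0.08 ± 0.07 (adjusted p = 0.854). Each was higher in 2 of 5 pairs.

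**Figure D2:**
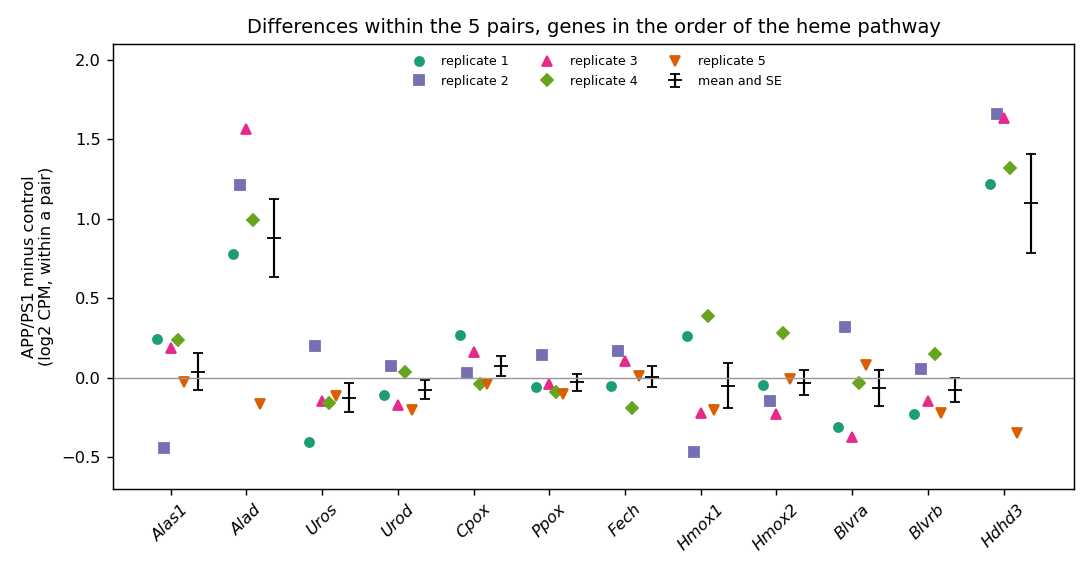
Difference between the APP/PS1 and the control library of each pair (y axis, log2 CPM) for heme synthesis and breakdown genes in pathway order, with Hdhd3 last. Black bars are the mean of the 5 pairs ± the moderated SE of limma. Alad and Hdhd3 have 4 pairs between 0.78 and 1.66, while the pairs of the other genes lie on both sides of 0.

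Levels between genes were compared as CPM per kilobase of annotated exon (CPM per kb), as a mean ± SD of the 5 libraries of a group. In control libraries Alas1 was highest at 54.0 ± 5.59 CPM per kb, and no library of another member reached its range. Hmox2 at 17.0 ± 1.11 and Alad at 15.8 ± 3.56 followed, and their ranges overlapped. Ppox at 10.7 ± 0.384 and Urod at 9.79 ± 0.424 came next and also overlapped each other.

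Below them, Cpox (2.38 ± 0.112 CPM per kb), Uros (2.30 ± 0.171) and Fech (2.24 ± 0.108) could not be ordered beyond their spread. Hdhd3 was lowest at 0.914 ± 0.282 CPM per kb, under the range of all others. In APP/PS1 libraries Alad stood at 29.1 ± 6.22 CPM per kb, from 19.2 to 35.8, with no overlap with Hmox2, whose highest library had 18.4. Hdhd3 stood at 1.96 ± 0.488 CPM per kb there, and its highest library, at 2.28, lay within the ranges of Uros and Fech.

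The annotated exon length counts every exon of a gene, so these values are lower for genes with many alternative exons, such as Fech with 13.8 kb. Of the members, 5 overlap another annotated gene (Alas1, Uros, Cpox, Ppox and Hmox2), and since the sources used here do not say whether strand was used in counting, reads of the overlap may be assigned to either gene.

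**Figure D3:**
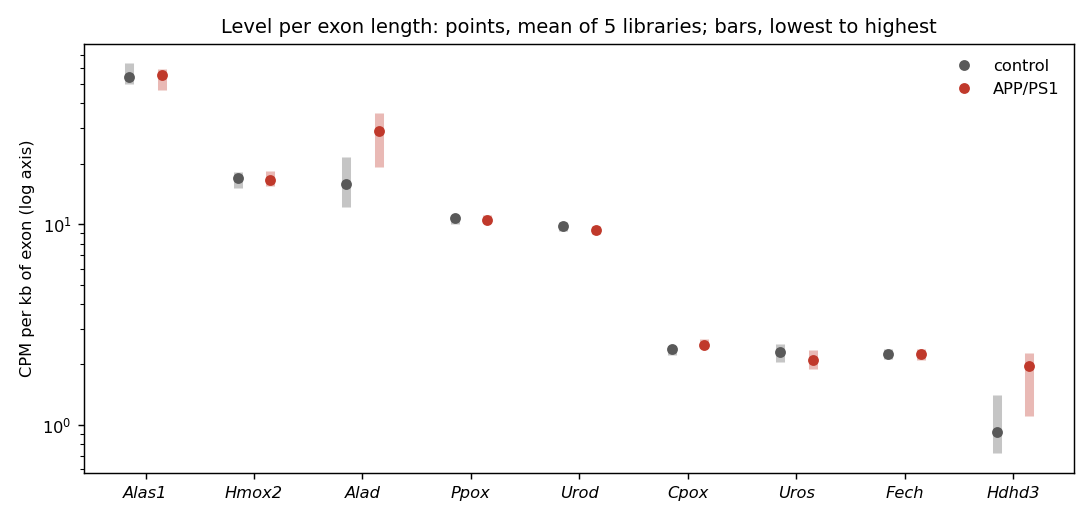
Level of each member in CPM per kb of exon (log axis), control in grey and APP/PS1 in red; points are means of 5 libraries and bars run from the lowest to the highest library. Alad and Hdhd3 shift upward between the groups, from 15.8 to 29.1 and from 0.914 to 1.96 CPM per kb, and the other 7 genes keep nearly the same place.

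The genes around Alad were then compared. Within 250 kb of Alad, 9 of 17 annotated genes were tested, Alad and Hdhd3 among them, and the other 7 had log2 fold changes no larger than 0.20 in size. On the side of Hdhd3 lie Prpf4, a splicing factor (0.09 ± 0.06, SE, adjusted p = 0.806 by limma), and Cdc26, a subunit of the anaphase-promoting complex (−0.20 ± 0.12, adjusted p = 0.784). Farther out are the copper transporters Slc31a1 (0.12 ± 0.09, adjusted p = 0.825) and Slc31a2 (−0.00 ± 0.05, adjusted p = 0.992), and Fkbp15 (0.06 ± 0.05, adjusted p = 0.840).

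On the other side, Pole3 had 0.08 ± 0.07 (SE, adjusted p = 0.847 by limma), with differences of −0.11, 0.22, 0.28, 0.06 and −0.04 in replicates 1 to 5. Rgs3, a regulator of G-protein signalling, had 0.08 ± 0.07 (adjusted p = 0.849). Over the 7 genes and 5 pairs, single differences ran from −0.59 (Cdc26, replicate 1) to 0.40 (Slc31a1, replicate 3), so no single difference reached the 0.78 of the smallest positive difference of Alad. Slc31a1 and Cdc26 overlap on opposite strands and may share reads. Rnf183, Wdr31 and Bspry, which are annotated in the window, were not analysed here.

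**Figure D4:**
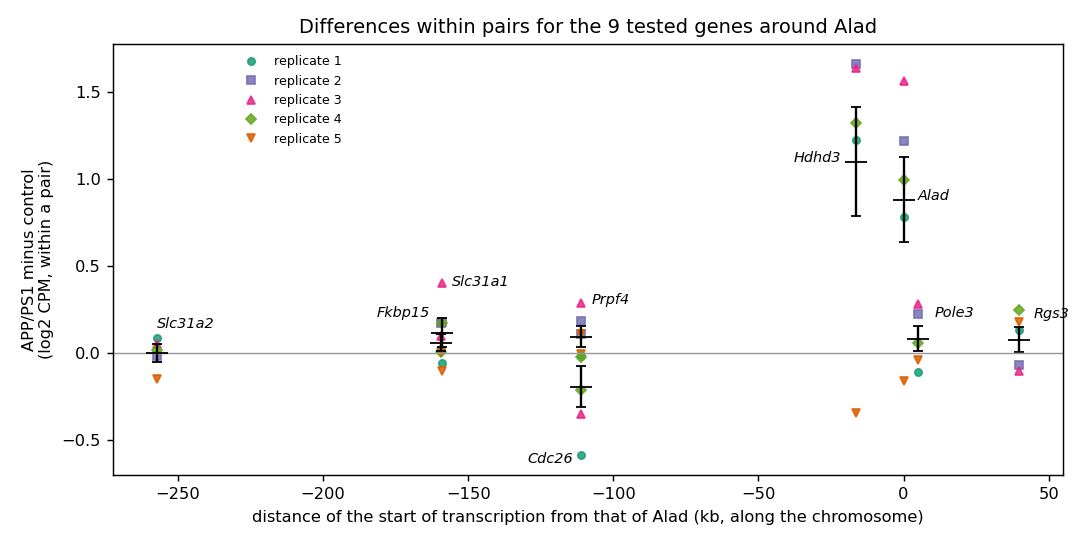
Difference within each pair (y axis, log2 CPM) for the 9 tested genes around Alad, placed by the distance of their start of transcription from that of Alad (x axis, kb). Black bars are the mean of 5 pairs ± the moderated SE of limma. Hdhd3 and Alad stand above the other tested genes in replicates 1 to 4, and Pole3, 2730 bases from Alad, lies near 0.

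The genes most like Alad in their 5 differences were sought among 12190 genes with a mean of at least 1 log2 CPM, by root mean square (RMS) distance. Hdhd3, whose mean of 0.82 was under that limit, was compared all the same and lay 0.33 log2 units from Alad. Other genes under the limit were not ranked, so closer ones among them were not sought. The nearest genes above the limit lay farther away, led by Kazald1 at 0.60, Bach2 at 0.61, the small RNA gene Gm22009 at 0.61, the pseudogene Chchd2-ps at 0.65 and Nog at 0.65. For Hdhd3, Alad was the nearest gene above the limit at 0.33, followed by Kazald1 at 0.84, Pcdhgb8 at 0.86, the pseudogene Gm37559 at 0.87 and Gm22009 at 0.90.

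Kazald1 differed by 0.97, 0.05, 1.01, 0.65 and −0.23 in replicates 1 to 5, and thus did not share the difference of replicate 2. Bach2, a heme-binding repressor of transcription, differed by −0.02, 0.59, 1.23, 0.35 and 0.37, and did not share the negative value of replicate 5. These distances are a ranking of 5 values a gene and carry no test. A limit chosen after the values were seen, a difference of at least 0.75 in each of replicates 1 to 4, was passed by 3 genes of 14106, Alad, Hdhd3 and Prg2, a granule protein of eosinophils. At a limit of 0.5 it was 7 genes. Both limits leave out replicate 5, where Alad and Hdhd3 were lower in APP/PS1. They follow the values by which Alad and Hdhd3 were chosen, so the counts are a description only.

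The wider heme and iron pathway was described from lists of 92 other genes, 83 of which were tested. Over all 14106 genes, limma with the pairs as a block called 0 genes at an adjusted p under 0.05, or 0%, with 1133 genes (8.03%) at an unadjusted p under 0.05 and a lowest adjusted p of 0.195. Accordingly none of the 83 genes was called, and 4 had an unadjusted p under 0.05. Of the 83, 35 had a log2 fold change above 0 and 48 below, with a median of −0.02 against −0.00 for all genes, and 74 lay within 0.2 of 0. Of all 14106 genes, 6798 were above 0 and 7308 below, which is the background of the counts by list that follow. No list was tested as a set.

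Among 15 tested genes of heme and porphyrin transport, 9 were above 0 and 6 below, with a median of 0.02. Flvcr1, a heme exporter, had 0.12 ± 0.09 (SE, adjusted p = 0.831 by limma), and Pgrmc2, a heme chaperone, had 0.09 ± 0.04 (adjusted p = 0.690) and was the one gene of the list that was higher in all 5 pairs. Slc25a39, a mitochondrial carrier, had −0.16 ± 0.08 (adjusted p = 0.682). Lrp1, the receptor of the heme-hemopexin complex, had the lowest value, −0.55 ± 0.18 (adjusted p = 0.569).

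The 12 tested genes of mitochondrial iron and iron-sulfur clusters lay within 0.2 of 0, with 3 above and 9 below and a median of −0.03. Fdx1, a ferredoxin, had 0.06 ± 0.05 (SE, adjusted p = 0.855 by limma). Isca2 at −0.11 ± 0.10 (adjusted p = 0.845) and Fdxr, which reduces ferredoxins, at −0.08 ± 0.13 (adjusted p = 0.914) had the lowest.

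Of 17 tested genes of iron uptake, storage and export, 6 were above 0 and 11 below, with a median of −0.04. Tfrc, the transferrin receptor, was highest at 0.22 ± 0.11 (SE, adjusted p = 0.733 by limma) and was higher in 4 of 5 pairs, with replicate 1 the exception at −0.22. Slc39a14, a metal importer, had 0.06 ± 0.10 (adjusted p = 0.918). The ferroxidases hephaestin (Heph, −0.17 ± 0.07, adjusted p = 0.656) and ceruloplasmin (Cp, −0.16 ± 0.08, adjusted p = 0.733) were lowest.

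The regulators of heme genes were 12 tested genes, of which 11 were above 0 and 1 below, with a median of 0.07. Mafk, a partner of BACH1 and NRF2, had 0.13 ± 0.17 (SE, adjusted p = 0.892 by limma) and the clock repressor Nr1d1 0.12 ± 0.10 (adjusted p = 0.845). Nrf1 had 0.02 ± 0.05 (adjusted p = 0.958), and Ppargc1a, a coactivator that raises Alas1 in liver, had −0.11 ± 0.24 (adjusted p = 0.937). All 12 lay within 0.2 of 0.

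The 7 tested phosphatases of the HAD type, relatives of Hdhd3, also lay within 0.2 of 0, with 3 above and 4 below and a median of −0.04. Phosphoglycolate phosphatase (Pgp) had 0.11 ± 0.09 (SE, adjusted p = 0.845 by limma) and Hdhd5 0.07 ± 0.05 (adjusted p = 0.815). Phosphoserine phosphatase (Psph) had −0.16 ± 0.08 (adjusted p = 0.709) and Hdhd2 −0.05 ± 0.06 (adjusted p = 0.883). None of them had the pattern of Hdhd3 over the pairs.

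Of 15 tested genes listed as hemoproteins or heme-dependent enzymes, 3 were above 0 and 12 below, with a median of −0.07. Among the 12 are Por (−0.09), Cyb5r3 (−0.06) and Sc5d (−0.08), which carry no heme themselves. Cytoglobin (Cygb) had −0.71 ± 0.34 (SE, adjusted p = 0.698 by limma) and Gucy1a1, a subunit of the nitric oxide receptor, −0.65 ± 0.23 (adjusted p = 0.581). Tdo2, which opens tryptophan, had 0.46 ± 0.48 (adjusted p = 0.868) at a mean of −1.75 log2 CPM, and Cyp51, of sterol synthesis, had 0.07 ± 0.07 (adjusted p = 0.849). The 6 pericyte markers, all tested, moved with Cygb, Gucy1a1 and Lrp1. All 6 were lower in APP/PS1, with a median of −0.77, a summed level of 482 to 849 CPM in control and 241 to 501 CPM in APP/PS1 libraries and none at 0 counts, and their part in these values was not tested.

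Alas2, the red cell form of the first enzyme, differed more between pairs than any gene of synthesis named above. Its differences were −0.86, −2.31 and −3.99 in replicates 1 to 3, where APP/PS1 was lower, and 1.03 and 1.70 in replicates 4 and 5, where it was higher. The mean was −0.89 ± 0.87 (SE, adjusted p = 0.855 by limma). The hemoglobin gene Hbb-bs followed it with −1.92, −3.35, −3.87, 0.73 and 2.44, and Hba-a1 and Hbb-bt ran alike.

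Of 12 red cell markers 4 were tested, all 4 lower on average in APP/PS1 with a median of −1.16, and none was at 0 counts in any library. Their summed level ranged from 29.4 to 241 CPM in control and from 14.3 to 153 CPM in APP/PS1 libraries. Alad, which red cell precursors also use, was higher by 0.99 in replicate 4, where the red cell genes were higher too, and higher in replicates 1 to 3 and slightly lower in replicate 5, where the red cell genes went the opposite way. The part of red cell RNA in the levels of Alad and Hdhd3 was not tested.

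**Figure D5:**
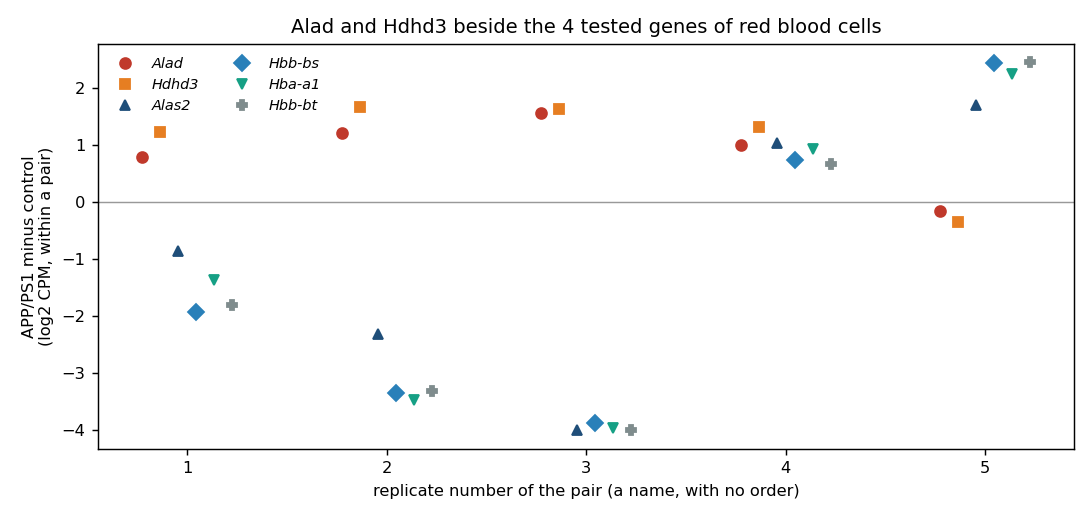
Difference within each pair (y axis, log2 CPM) by replicate number (x axis, a name with no order) for Alad, Hdhd3 and the 4 tested red cell genes. Alad and Hdhd3 lie above 0 in replicates 1 to 4 and just under 0 in replicate 5, while the red cell genes lie below 0 in replicates 1 to 3 and above 0 in replicates 4 and 5.

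Markers of other cells were also compared beside Alad. The summed level of the pericyte markers differed by −1.82, −0.35, −0.36, −1.34 and 0.06 on the log2 scale in replicates 1 to 5, and that of the endothelial markers by −0.02, −0.19, 0.05, 0.07 and 0.04. Neuron markers (3 of 6 tested) were all lower on average, and their sum, 6.67 to 8.23 CPM in control and 4.85 to 6.19 CPM in APP/PS1 libraries, differed by −0.76, −0.50, −0.64, −0.11 and −0.28. Gad1, at −0.18 ± 0.19 (SE, adjusted p = 0.868 by limma) and higher in 2 of 5 pairs, makes up most of this sum. The rest is Snap25 (−1.97) and Slc17a7 (−1.05). Microglia and leukocyte markers (7 of 8 tested, 3 higher and 4 lower) summed to at most 17.9 CPM in any library.

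Oligodendrocyte markers (5 of 6 tested) were all lower on average in APP/PS1, with a median log2 fold change of −2.39. Their sum, 35.5 to 269 CPM in control and 30.4 to 137 CPM in APP/PS1 libraries, differed by −3.14, 1.95, −2.25, −2.36 and −2.61 in replicates 1 to 5, and Mag was at 0 counts in 1 library. Of the 6 astrocyte markers, all tested, 5 were lower on average and 1, Gja1, was higher, with a median of −0.98. Gja1, at 0.27 ± 0.13 (SE, adjusted p = 0.714 by limma), makes up most of their summed CPM, so the sum, 168 to 205 CPM in control and 170 to 210 CPM in APP/PS1 libraries, mainly follows it. Of the hepatocyte markers (4 of 8 tested), 2 were higher and 2 lower on average, with a median of 0.01. Their sum, 58.2 to 95.2 CPM in control and 22.5 to 47.1 CPM in APP/PS1 libraries, mainly follows the largest part of it, Ttr, at −1.03 ± 0.38 (adjusted p = 0.594 by limma). Since only 4 of 8 were tested and these moved both ways, the sum is no measure of hepatocytes. The part of these cells in the levels of Alad and Hdhd3 was not tested.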

How the data were processed

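BECs of 5 control and 5 APP/PS1 mice or pools were profiled by RNA sequencing. Per the methods and the submitters' notes, the authors aligned reads with STAR to mm10, counted genes with HTSeq-count, filtered low counts with filterByExpr and took log CPM with the cpm function of edgeR, followed by ComBat. Versions are not given in the sources used here. The deposited values are log2 CPM. In every library 100% of them converted back to whole adjusted counts (tolerance 0.05, mean prior count 3), and 10 of 10 single-library files equalled their table columns. Symbols, positions and exon lengths came from GENCODE M21.

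The linear model of limma 3.58.1 (R 4.3.3) was fitted to all 14106 genes with genotype and replicate number as a block, with Benjamini-Hochberg adjustment over all of them and calls at an adjusted p under 0.05. The pairs follow the replicate numbers and were read from the deposited values. Deviations of paired libraries had rank correlations of −0.999 to −0.989, since the correction set pair means nearly equal. The block thus counts degrees of freedom that were already used. The labels give 4 batches, with replicates 4 and 5 in 1 batch, which was an alternative.

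The members and lists were chosen with earlier results of these data known. Genes named were the 9 members, tested genes starting within 250 kb of Alad, in each list the 2 highest and 2 lowest log2 fold changes, and the 5 genes nearest to Alad and to Hdhd3 among those with a mean of at least 1 log2 CPM. Some genes that this rule names are not reported here. Bach2 and Kazald1 are described further, and Prg2, Gja1, Ttr, Mag, Gad1, Snap25, Slc17a7, Por, Cyb5r3 and Sc5d are named, after their values were seen. Alternatives were no block, the 4 batches, a trend in eBayes, a mean of at least 1 log2 CPM, a prior count of 0.125, median-of-ratios size factors, a threshold of 0.10 and leaving out each pair.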

Additional observations from a re-analysis of the deposited data

Results flagged for a closer look

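The highest or lowest library was compared with the others in each group of 5 for 45 genes (the members, the genes around Alad and the genes named from lists), 90 groups in all. A library counted as far from its group when its gap to the nearest other library, divided by the range of the group, was above 0.71. Chance gives about 1 in 20 groups, or 4.5 of 90, and 7 were found. The paired libraries mirror each other, so groups of the same gene are not independent.

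Hdhd3 in APP/PS1 replicate 5 lay at 0.59 log2 CPM, below the next library at 1.48, with a gap of 0.849 of the range. Ppox had a gap of 0.784 in control, where replicate 2 was lowest, and of 0.741 in APP/PS1, where replicate 2 was highest. Psph had the same libraries apart, with gaps of 0.761 in control and 0.739 in APP/PS1. Hdhd2 was lowest in APP/PS1 replicate 1 with a gap of 0.792. Tdo2 was lowest in APP/PS1 replicate 3 with a gap of 0.718, at a level of −4.35 log2 CPM.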

How the results depend on the processing

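The log2 fold changes of the 9 members and the 7 genes around Alad took 175 values under the alternatives, and 0 of them moved by as much as 1 SD of the 5 differences. For most alternatives this was fixed in advance and is no sign of stability. Omitting the block, the batches of the labels, the trend and the level limit cannot change a log2 fold change in this balanced design. Leaving out 1 of 5 pairs cannot shift the mean by 1 SD. The prior count and the size factors could have done so, and did not for any of these genes. Alad ranged from 0.71 (without replicate 3) to 1.14 (without replicate 5) and Hdhd3 from 0.96 to 1.46. Of the 175 values, 7 had another sign than the reported value, all in genes near 0: Alas1, Fech, Hmox2 and Slc31a2. The limit of 1 log2 CPM leaves Hdhd3 out.

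Without the replicate block, which ignores the pairing, 648 genes were called (193 higher and 455 lower) against 0 with it, and 3 of the 83 pathway genes (Pgrmc2 higher, Hfe and Ptgs1 lower) against 0. With the 4 batches of the labels, 1 gene (Sox10, lower) was called. Leaving out 1 pair gave 0 to 5 called genes: 5 (all lower) without replicate 2, 1 (Prg2, higher) without replicate 5 and 0 without the others. For the pathway genes it gave 0 each time. The cause was not tested. The remaining alternatives called 0 genes. With 5 pairs and 4 residual degrees of freedom, small changes are not detectable here.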
